A study of Homo sapiens with 16 samples.

Results

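Genes of interleukin, leukemia inhibitory factor and colony stimulating factor signaling were followed in human kidney organoids, 10 in all, and each was measured in each of the 3 bulk RNA-seq tables (20121, 27650 and 21093 listed genes) and in both single-cell matrices (36601 genes). They were listed by name, with earlier results of these data known, so that their counts set beside those of all genes are a description. The list holds the ligands LIF, IL11, IL15, IL34 and CSF1, the receptor chains IL6ST, LIFR and OSMR, the transcription factor STAT3 and its inhibitor SOCS3. The organoids were grown from UM77-2, a human embryonic stem cell line, in all 13 bulk libraries, while the labels of the single-cell libraries name human embryonic stem cells and no line. Bulk set 1 held 1 library each of isolated organoid spheroids on days 21, 25 and 29 of culture, and set 2 held 2 libraries on each of these days. The last set held day 25 organoids kept with vehicle control (VC, phosphate buffered saline) or with 5 ng/ml tumor necrosis factor (TNF) for 24 h or 48 h, with 1 library for each of the 4 combinations. The single-cell libraries were taken from whole wells on day 24, after 24 h with VC or 5 ng/ml TNF, and there was 1 library of each. Whether libraries of a group came from separate differentiations was not given in the sources used here, so the p-values measure the spread between these libraries, which may be technical.

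LIF, IL11, oncostatin M and related cytokines share the signaling chain gp130, encoded by IL6ST, which pairs with LIFR, OSMR or a ligand-binding chain such as IL11RA. Paired receptors activate Janus kinases, which phosphorylate STAT3, and STAT3 induces SOCS3, which in turn blocks the receptor. CSF1 and IL34 are the ligands of CSF1R, the receptor that keeps macrophages alive, while IL15 acts through IL15RA on lymphocytes. In the kidney, tubule and interstitial cells are known sources of CSF1 and IL34 after injury.

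Bulk values are given as log2(CPM + 1), CPM being counts per 1000000 reads of the library. Library totals ran from 19073609 to 30282025 reads in sets 1 and 2 and from 49948198 to 59246286 in the TNF set. As a check of the labels, all 9 genes of a list of known NF-κB targets were called higher with TNF, by 2.26 to 4.25 on the log2 scale. Across days, other things moved as well. The summed level of 8 stromal markers in set 2 was 4219 and 4817 CPM on day 21, 10960 and 11327 on day 25, and 14151 and 17672 on day 29. That of 10 podocyte markers was 11881 and 12458 CPM on day 21, 9944 and 10151 on day 25, and 8405 and 4012 on day 29, so the second day 29 library stood below the first. The sum of 8 neuronal markers went from 210 and 222 CPM on day 21 to 477 and 776 on day 29. That of 8 muscle markers went from 76.5 and 109 CPM to 232 and 199. In bulk RNA, a change in the number of cells of a type and a change in RNA per cell cannot be told apart. The part of these cell type markers in the results by day was not tested.

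With culture time, 7 of the 10 genes rose between day 21 and day 29 in set 2 and none fell: LIF, IL11, IL34, CSF1, LIFR, OSMR and STAT3. Over all 27650 genes, 10.0% were called higher and 8.33% lower in that comparison. With the median of each library set to the same value, 2408 genes were called higher and 4667 lower, against 2778 and 2303 without this centring. The median log2 fold change of the 10 genes was 0.69, against -0.02 over all genes tested. OSMR changed most, by 1.88 on the log2 scale, and SOCS3 and IL15 showed no difference that passed the test. Calls are those of limma with Benjamini-Hochberg adjustment over all listed genes, at an adjusted p under 0.05.

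**Figure D1:**
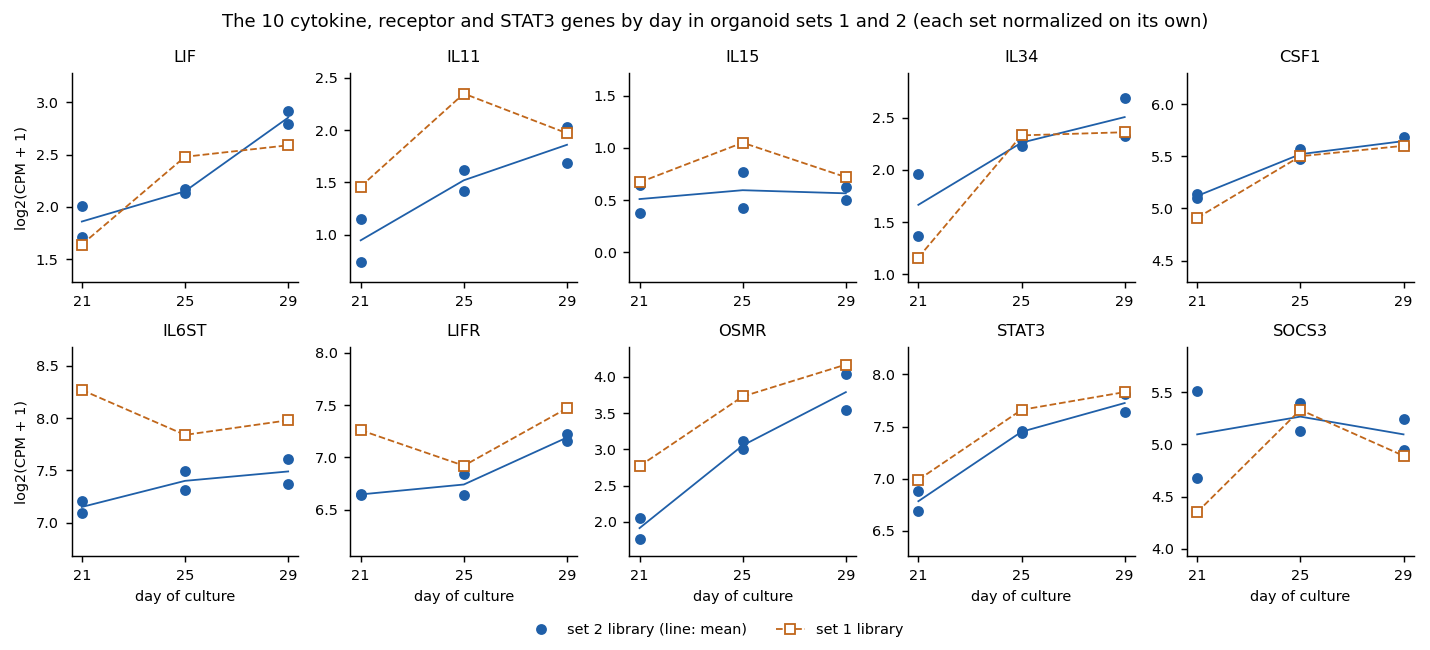
Values of the 10 genes as log2(CPM + 1) against the day of culture (21, 25 and 29), with 1 filled circle per set 2 library, a line through the set 2 means and open squares for the single set 1 library of each day. The sets were normalized separately, so only the course within a set can be read. OSMR in set 2 goes from 2.06 and 1.77 on day 21 to 3.54 and 4.04 on day 29, while SOCS3 spreads from 4.68 to 5.51 within day 21 alone.

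Among the ligands, LIF (ENSG00000128342, chromosome 22, 30240453 to 30246759, GRCh38, minus strand), a cytokine that signals through gp130 and LIFR, stood at 1.71 and 2.01 on day 21, at 2.17 and 2.13 on day 25 and at 2.79 and 2.92 on day 29. Both day 29 libraries lay above all others. The rise from day 21 to day 29 was 0.99 ± 0.17 (SE, n = 2 per day, limma adjusted p = 0.00515), while that to day 25 was 0.29 ± 0.17 and did not pass the test (limma adjusted p = 0.413). IL11 (ENSG00000095752, chromosome 19, 55364382 to 55370463, minus strand), a gp130 ligand linked to fibrosis, was low throughout, with 18 to 85 reads per library. Its values were 1.15 and 0.74 on day 21, 1.62 and 1.42 on day 25, and 1.69 and 2.03 on day 29, without overlap between the first and the last day. The day 29 difference was 0.92 ± 0.20 (SE, n = 2, limma adjusted p = 0.0158). This call was lost without the second day 21 library (adjusted p = 0.118) and without the second day 29 library (adjusted p = 0.0788).

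IL34 (ENSG00000157368, chromosome 16, 70579895 to 70660682, plus strand), the second ligand of CSF1R, was at 1.96 and 1.37 on day 21, at 2.29 and 2.23 on day 25 and at 2.32 and 2.69 on day 29. Its day 21 libraries lay 0.59 apart, so that the rise of 0.84 ± 0.23 (SE, n = 2, limma adjusted p = 0.0393) is the least firm of the 7. It failed without the second day 21 library (adjusted p = 0.212), without the second day 29 library (0.181), without either day 25 library (0.0695 and 0.0692) and with a pseudocount of 0.1 (0.0725). CSF1 (ENSG00000184371, chromosome 1, 109910242 to 109930992, plus strand), the main macrophage growth factor, was the highest of the 5 ligands, counted per length of exon, in all 9 libraries of sets 1 and 2. On the log2(CPM + 1) scale it moved from 5.14 and 5.10 on day 21 to 5.47 and 5.57 on day 25 and 5.61 and 5.68 on day 29. No day overlapped with another, and the rise by day 29 was 0.52 ± 0.07 (SE, n = 2, limma adjusted p = 0.00242). IL15 (ENSG00000164136, chromosome 4, 141636583 to 141733987, plus strand) rested on 6 to 16 reads per library in set 2. Its values of 0.38 and 0.64, 0.77 and 0.42, and 0.63 and 0.50 on the 3 days overlapped, and no difference was detectable at this depth.

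Of the receptors, OSMR (ENSG00000145623, chromosome 5, 38845858 to 38945596, plus strand), the chain that binds oncostatin M together with gp130, went from 2.06 and 1.77 on day 21 to 3.11 and 3.0 on day 25 and to 3.54 and 4.04 on day 29. The days did not overlap. The rise was 1.88 ± 0.20 by day 29 (SE, n = 2, limma adjusted p = 0.000637), and 1.14 ± 0.20 by day 25 (limma adjusted p = 0.0178). LIFR (ENSG00000113594, chromosome 5, 38474668 to 38608354, minus strand), the signaling partner of gp130 for LIF, lies 238 kb from OSMR on the same chromosome. It was at 6.65 and 6.64 on day 21, at 6.84 and 6.64 on day 25 and at 7.16 and 7.22 on day 29. The first 2 days overlapped and day 29 lay above both, with a rise from day 21 of 0.55 ± 0.08 (SE, n = 2, limma adjusted p = 0.00296). LIFR was the only one of the 10 genes called between days 25 and 29, by 0.45 ± 0.08 (limma adjusted p = 0.041), where 1.25% of all genes were called higher. That call was lost under 7 of 13 alternatives, including the fit without the mean-variance trend (adjusted p = 0.0977).

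IL6ST (ENSG00000134352, chromosome 5, 55935095 to 55995022, minus strand), the shared gp130 chain, was at 7.21 and 7.09 on day 21, at 7.49 and 7.31 on day 25 and at 7.61 and 7.37 on day 29. Both later days lay above both day 21 libraries. For day 29 this held for 8 of the 10 genes, IL6ST and the 7 called, and for 27.1% of all genes. The difference of 0.34 ± 0.10 on day 29 just missed the threshold (SE, n = 2, limma adjusted p = 0.0546), and edgeR (adjusted p = 0.0174) and DESeq2 (adjusted p = 0.00856) on the recovered reads called it. With organoid number as a block limma called it too (adjusted p = 0.00564). STAT3 (ENSG00000168610, chromosome 17, 42313324 to 42388540, minus strand), the transcription factor at the end of this cascade, rose from 6.88 and 6.69 on day 21 to 7.44 and 7.46 on day 25 and 7.64 and 7.81 on day 29. No day overlapped with another. The rise was 0.67 ± 0.09 by day 25 (limma adjusted p = 0.0071) and 0.94 ± 0.09 by day 29 (SE, n = 2, limma adjusted p = 0.000421). SOCS3 (ENSG00000184557, chromosome 17, 78356778 to 78360077, minus strand), the feedback inhibitor that STAT3 induces, was not called. Its day 21 libraries were at 5.51 and 4.68, those of day 25 at 5.40 and 5.13 and those of day 29 at 4.95 and 5.24, so that all 4 later values lay between the day 21 libraries. The difference between days 29 and 21 was -0.00 ± 0.24 (SE, n = 2, limma adjusted p = 0.999).

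By day 25, 3 of the 10 genes had risen (CSF1, OSMR and STAT3), where 3.39% of all genes were called higher. Over all genes the split was 937 higher and 549 lower, and 971 and 1281 after median centring. These early calls depended on single libraries, since without the second day 21 library or either day 25 library none of the 3 was called.

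**Figure D2:**
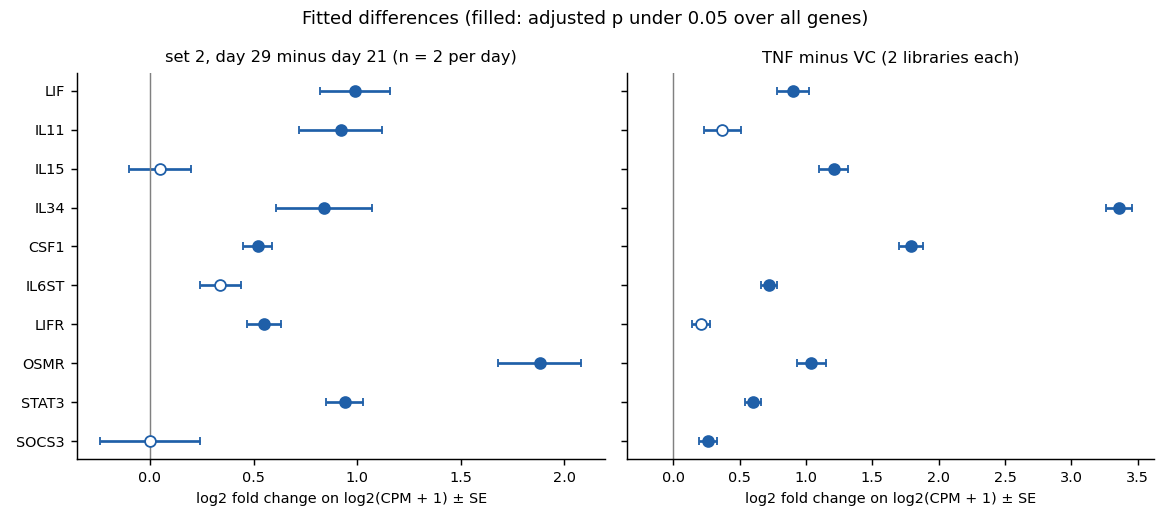
Fitted log2 fold changes of the 10 genes on the log2(CPM + 1) scale with their standard errors, for day 29 minus day 21 in set 2 (left, 2 libraries per day) and for TNF minus VC (right, 2 libraries each, 24 h and 48 h as a term). Filled circles have a limma adjusted p under 0.05 over all genes, 7 on the left and 8 on the right, and IL34 with TNF lies farthest from 0 at 3.36.

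Set 1 gave a separate look at the same days with 1 library each and no test. In it 9 of the 10 genes were higher on day 29 than on day 21, where 49.5% of all genes were. OSMR went from 2.77 to 3.73 and 4.17 over the 3 days. STAT3 went from 6.99 to 7.66 and 7.83, LIF from 1.64 to 2.48 and 2.59, and IL34 from 1.16 to 2.33 and 2.36. For these 4 genes the larger step of set 1 was the one before day 25. IL6ST was the exception, with 8.27 on day 21, 7.84 on day 25 and 7.98 on day 29, opposite to its course in set 2. LIFR dipped from 7.26 to 6.92 on day 25 and stood at 7.47 on day 29. In set 1 the 8 stromal markers summed to 7192, 16208 and 19034 CPM on the 3 days. The 8 neuronal markers went from 918 CPM on day 21 to 677 on day 29, opposite to set 2, and the 7 listed muscle markers from 80.9 to 331.

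The partners of these genes were mixed in direction from day 21 to day 29. Of 4 other gp130 ligands listed in set 2 none was called, and IL6, OSM and IL27 were not listed in any bulk table. Among 4 ligand-binding gp130 receptors, IL27RA rose by 1.18 ± 0.19 (limma adjusted p = 0.00453) and IL6R, the interleukin 6 receptor, fell by 1.27 ± 0.11 (limma adjusted p = 0.000329). IL6R went from 6.33 and 6.39 on day 21 to 5.27 and 4.91 on day 29. In the single-cell VC library it was highest in podocyte-like cells, at 33.4 CPM against 1.06 in stromal-like cells. The podocyte markers fell over the same days, and their part in the fall of IL6R was not tested. Of 10 other Janus kinases and STAT factors, JAK3 (0.71 ± 0.11, limma adjusted p = 0.00328) and JAK1 (0.41 ± 0.06, limma adjusted p = 0.00288) rose and 8 were not called. Of 14 inhibitors, SOCS5 and SOCS1 rose by 0.67 and 0.61, and the phosphatase PTPN6 fell by 0.44. The calls of SOCS1 and PTPN6 were each lost in 3 of 13 alternatives, all with a library left out (adjusted p up to 0.142 and 0.129).

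Of 13 listed genes often described as STAT3 targets, 4 rose, 2 fell and 7 were not called, with a median log2 fold change of 0.30 against -0.02 over all genes. A2M, a protease inhibitor, went from 3.19 and 2.66 on day 21 to 6.12 and 6.75 on day 29, a rise of 3.51 ± 0.22 (SE, n = 2, limma adjusted p = 0.000105). PIM1, a kinase, rose by 1.09 ± 0.15 (limma adjusted p = 0.00202). FOS and VEGFA fell by 2.61 and 1.2, and both calls were lost under some of the 13 alternatives (3 for FOS and 2 for VEGFA). In set 1 FOS did not fall, with 2.92 on day 21, 5.64 on day 25 and 3.53 on day 29. VEGFA fell there too, from 10.22 on day 21 to 9.18 on day 29. Of 7 listed genes of the interleukin 1 family, IL33 rose by 1.74 ± 0.24 and IL1R1, the interleukin 1 receptor, fell by 2.3 ± 0.10. IL18 fell by 0.67. Of 6 other interleukin receptor chains listed beside IL15, IL21R rose by 0.83, while IL13RA1 and IL4R fell by 0.62 and 0.54. Without the second day 21 library the calls of IL21R and IL13RA1 were lost (adjusted p = 0.0526 and 0.0821), and that of IL13RA1 also without the first (0.0582). In set 1 IL4R did not fall, with 4.49 on day 21 and 4.58 on day 29, while IL13RA1 went from 6.06 to 5.47. None of 4 listed colony stimulating factor receptors was called in set 2.

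TNF raised 8 of the 10 genes (IL34, CSF1, IL15, OSMR, LIF, IL6ST, STAT3 and SOCS3), where 8.42% of all 21093 genes were called higher, and lowered none, where 10.8% were called lower. Over all genes 1776 were called higher and 2285 lower, while DESeq2 on the recovered reads called 1206 and 978. The median log2 fold change of the 10 was 0.81, against -0.03 over all genes tested. All 10 were above VC at both 24 h and 48 h, as were 28.6% of all genes, and 9 (not SOCS3) had both TNF libraries above both VC libraries, as had 18.8%. By at least 1 on the log2 scale, 4 were higher at 24 h (1.28% of all genes) and 3 at 48 h (1.07%). The fit had time and treatment as terms and 1 library per combination, so that 24 h and 48 h stand in for replicates. Only 1 residual degree of freedom is left, which measures how far the TNF difference at 24 h departs from that at 48 h. No spread between libraries of a group enters it. Sharing of the spread over genes by limma then adds 15.7 prior degrees of freedom. The p-values with TNF thus rest mostly on spread taken from other genes. Where 2 libraries each are given, they are 1 of 24 h and 1 of 48 h. In the TNF libraries the stromal marker sum was 8206 and 8565 CPM against 6565 and 8078 with VC, and the podocyte marker sum was 4511 and 3360 CPM against 7439 and 6935. Their part in the TNF results was not tested.

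**Figure D3:**
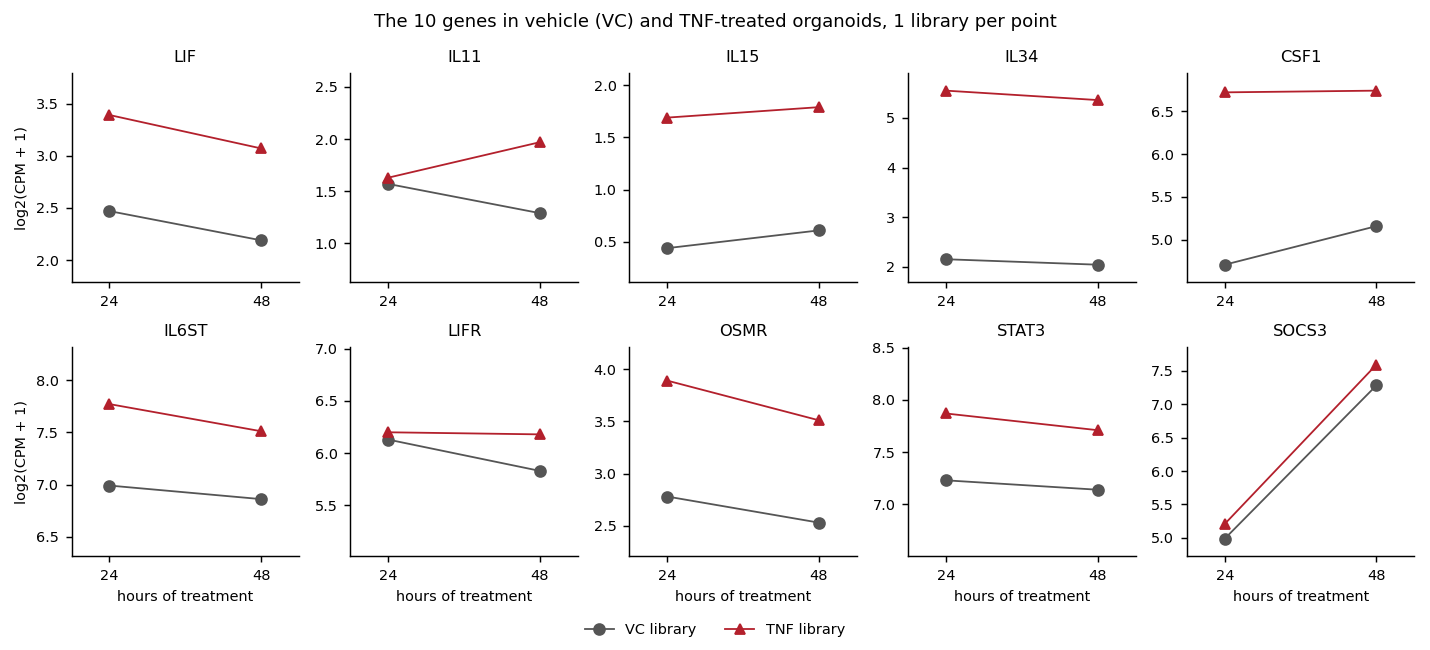
Values of the 10 genes as log2(CPM + 1) against hours of treatment (24 and 48), with circles for VC and triangles for TNF, 1 library per point and a line joining the times. IL34 is at 5.55 and 5.36 with TNF against 2.15 and 2.04 with VC, and SOCS3 at 48 h is at 7.28 with VC and 7.59 with TNF against 4.99 and 5.21 at 24 h.

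IL34 had the largest difference of the 10 genes. It was at 2.15 with VC and 5.55 with TNF at 24 h, and at 2.04 and 5.36 at 48 h, which is 13.3 and 12.8 times the CPM. The fitted difference was 3.36 ± 0.10 (SE, 2 libraries each, limma adjusted p = 1.05e-13), and it stayed past the threshold under all 11 alternatives. CSF1, the other ligand of the same receptor, was at 4.71 with VC and 6.72 with TNF at 24 h and at 5.16 and 6.74 at 48 h. Its difference of 1.79 ± 0.09 (SE, 2 libraries each, limma adjusted p = 7.3e-11) was likewise called under all 11 alternatives. Per length of exon, both ligands came to the same range. At 24 h CSF1 had 4.8 and IL34 1.55 CPM per kilobase of exon with VC, and they had 19.9 and 20.6 with TNF. With 1 library each, the last pair cannot be put in an order.

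IL15 was at 0.44 and 0.61 with VC and at 1.69 and 1.79 with TNF, a difference of 1.21 ± 0.11 (SE, 2 libraries each, limma adjusted p = 4.08e-07). On the linear scale this was 6.17 and 4.63 times the CPM at the 2 times, from 19 reads upward. LIF was at 2.47 and 2.19 with VC and at 3.39 and 3.07 with TNF. Its difference of 0.90 ± 0.12 (SE, 2 libraries each, limma adjusted p = 1.74e-05) lost its call in 3 of the 4 fits that left out 1 library, which had no time term. IL11 was at 1.57 with VC and 1.63 with TNF at 24 h, and at 1.29 and 1.97 at 48 h. The difference of 0.37 ± 0.14 did not pass the test (SE, 2 libraries each, limma adjusted p = 0.0766), although median centring and edgeR called it (adjusted p = 0.0186 and 0.0253).

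Among the receptors, OSMR was at 2.78 and 2.53 with VC and at 3.89 and 3.51 with TNF, a difference of 1.04 ± 0.11 (SE, 2 libraries each, limma adjusted p = 1.77e-06). It was lost without the 24 h TNF library (adjusted p = 0.0908) and without the 48 h VC library (0.0811), both without a time term. IL6ST was at 6.99 and 6.86 with VC and at 7.77 and 7.51 with TNF, a difference of 0.72 ± 0.06 (SE, 2 libraries each, limma adjusted p = 1.72e-07) that was called under all 11 alternatives. LIFR was at 6.13 and 5.83 with VC and at 6.20 and 6.18 with TNF. Its difference of 0.21 ± 0.07 missed the threshold (SE, 2 libraries each, limma adjusted p = 0.0565) and passed it with median centring, with edgeR and among genes with a mean of at least 1. STAT3 was at 7.23 and 7.14 with VC and at 7.87 and 7.71 with TNF, a difference of 0.60 ± 0.06 (SE, 2 libraries each, limma adjusted p = 9.51e-07), called under all 11 alternatives.

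SOCS3 differed far more between times than between treatments. It was at 4.99 with VC and 5.21 with TNF at 24 h, and at 7.28 and 7.59 at 48 h. The step from 24 h to 48 h was 2.29 with VC and 2.38 with TNF, and only 0.152% of all genes were higher by at least 1 on the log2 scale in either. FOS and JUNB, early response genes, moved alike with VC, from 7.03 to 9.23 and from 6.09 to 8.07. Since the times differ in 1 library per treatment, time and handling of the libraries cannot be told apart here. The TNF difference of SOCS3, 0.26 ± 0.07 (SE, 2 libraries each, limma adjusted p = 0.00818), rests on the time term. Without it the adjusted p was 0.933, and without the mean-variance trend it was 0.0773.

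Of the partner genes, IL27RA rose most among the gp130 receptors with TNF, by 1.80 ± 0.08 (limma adjusted p = 5.35e-11), while IL11RA, the binding chain for IL11, fell by 0.33 ± 0.07 (limma adjusted p = 0.00217), with 5 of 11 alternatives not calling it. None of the 4 other gp130 ligands listed was called. Of 10 other Janus kinases and STAT factors 6 rose and none fell, among them JAK3 (1.35 ± 0.09) and STAT5A (0.76 ± 0.11). The call of JAK3 held under all 11 alternatives, and that of STAT5A was lost under 4. Of 14 inhibitors 3 rose, SOCS1 by 0.59, PTPN2 by 0.37 and PIAS2 by 0.23. These calls were lost under 5, 5 and 7 of 11 alternatives, in each fit without the time term and for PIAS2 also with DESeq2 (adjusted p = 0.133) and without the trend (0.115). CSF2RB, the common chain of the granulocyte-macrophage receptor, rose by 1.48 ± 0.13 (limma adjusted p = 1.57e-07), and its call held under all 11 alternatives. CSF3R fell by 0.48, a call that was lost with DESeq2 (adjusted p = 0.28) and in all 4 fits with a library left out (0.118 to 0.212). CSF1R, the receptor of IL34 and CSF1, was not listed in set 1 or the TNF table and had 0 to 7 reads per library in set 2. IL15RA and IL7R rose by 0.37 and 0.87, and without the time term neither was called (adjusted p = 0.219 and 0.114). In all, 5 and 4 of 10 alternatives did not call them. In the interleukin 1 family IL18R1 and IL1R1 rose by 0.84 and 0.47 and IL1RAP fell by 0.47. Their calls were lost under 4, 3 and 6 of 11 alternatives, that of IL1RAP with DESeq2 too (adjusted p = 0.172).

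The genes often named as STAT3 targets split in direction with TNF: of 12 listed, 7 rose and 3 fell, with a median of 0.25 against -0.03 over all genes. BCL3, which is also a target of NF-κB, rose by 2.11 ± 0.13 (limma adjusted p = 3.42e-09), from 2.65 and 3.30 with VC to 5.16 and 5.01. FGB, the fibrinogen beta chain, fell by 1.53 ± 0.11 (limma adjusted p = 1.85e-08), from 4.11 and 4.13 to 2.73 and 2.45. JUNB rose by 0.91 and FOS fell by 0.86, and both changed with time as above. Their calls were lost under 5 and 7 of the 11 alternatives, with the sign turned in 1 and 2.

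Likeness to each of the 10 genes was measured as Pearson's r of values centred within a table, over the 10 libraries of set 2 and the TNF set and among 16362 genes with a mean of at least 1 in both. It is a description without a test, since the libraries share days and treatments. STAT3 and OSMR were each other's nearest gene (r = 0.991). STAT3 was next followed by ITGAV and RET (both 0.987) and OSMR by GUCY1A2 (0.987). IL34 was closest to RHBDF2 (0.992), MMP9 and PAPLN (both 0.989). Among the genes nearest to CSF1 were GJA5 (0.987) and BCL3 (0.984), and IL6ST was closest to RASSF4 (0.990), NFE2L3 (0.986) and TNFRSF14 (0.972). LIF was closest to LAYN and SPRED1 (both 0.976), and LIFR to HAPLN1 (0.968). SOCS3 stood with the early response genes JUN (0.979), IER2 (0.973) and ZFP36 (0.972). IL15 was below the mean limit.

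The promoters were searched because most of these genes rose with TNF, whose effects on transcription run largely through NF-κB, and because STAT3 is one of them. RefSeq promoters of GRCh38.p14, 250 bases before to 50 bases after a gene start, were at hand for 6 of the 10 genes (9 promoters), and LIF, IL15, IL34 and CSF1 were not among them. A RefSeq start can differ from the gene's outer end in GENCODE given above. The starts of the LIFR promoters shown lie 12.9 and 50.9 kb inside that gene, the IL6ST start 59 bases inside, and the IL11 start is the same. The STAT motif TTCNNNGAA is present on either strand in 7.66% of all 35116 promoters, the AP-1 motif TGAGTCA or TGACTCA in 4.95%, and the NF-κB consensus in 11.3%. No promoter of these genes held more than 1 of the matches. In capitals below are the matches: the STAT motif in 2 of 3 LIFR promoters (chr5:38595552-38595581 and chr5:38557631-38557660, minus strand), the NF-κB consensus on the opposite strand of the IL6ST promoter (chr5:55994997-55995026, minus strand) and the AP-1 motif in the IL11 promoter (chr19:55370542-55370571, minus strand).
LIFR, STAT motif starting 165 bases before the RefSeq start at 38595405: cccattactagTTCCTTGAAccacaatcca
LIFR, STAT motif starting 182 bases before the RefSeq start at 38557467: tgctttggagtTTCATCGAAaggtctttaa
IL6ST, NF-κB consensus starting 53 bases before the RefSeq start at 55994963: gcgggattggGGAGCGCCCCgccccgccgc
IL11, AP-1 motif starting 96 bases before the RefSeq start at 55370463: aggcagggagggTGAGTCAggatgtgtcag
In the promoters of OSMR, STAT3 and SOCS3 these letters were not found within the window. A match is a description of the letters only.

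The single-cell libraries show in which cells the transcripts lay. The VC library held 11906 cells with over 500 genes and a median of 6358.5 UMIs, and the TNF library 23160 cells with a median of 2599. They shared 82 cell barcodes. The cells fell into 12 clusters, 9 of which could be named from separate marker genes. A level is the sum of a gene's UMIs in a cluster, per 1000000 UMIs of that cluster (CPM), given where needed with an exact 95% interval for the counting error alone. No test was possible with a single library of each kind, and TNF and library cannot be told apart.

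Markers of a cell type stood at larger shares in the other clusters in the TNF library. The 10 podocyte markers, which other cells should lack, summed in the other clusters to a median of 3.12% of their level in podocyte-like cells with VC and of 13.2% with TNF. The 8 stromal markers were at 5.29 to 39.2% of their stromal-like level in the other clusters with VC and at 24.6 to 60.1% with TNF. In their own clusters both sets were lower with TNF, which by itself raises these shares. Podocyte markers summed to 4932 CPM there against 9629 with VC, and stromal markers to 4810 against 7375. The lowest level in any other cluster was higher with TNF in CPM as well. It was 398 against 105 for podocyte markers and 1181 against 390 for stromal markers. The cause of the larger shares was not tested. In both libraries the highest of these stromal shares was that of the proliferating-like cluster, 39.2% with VC and 60.1% with TNF. Whether its cells express stromal markers themselves was not tested. A level within the range is therefore not shown to lack expression either. A level with TNF that is within or below 24.6 to 60.1% of the stromal-like level is not read here as expression. Its ratio to VC is not read as a change. The range is taken over all clusters, so this rule can pass over expression in a cluster with a lower stromal share.

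**Figure D4:**
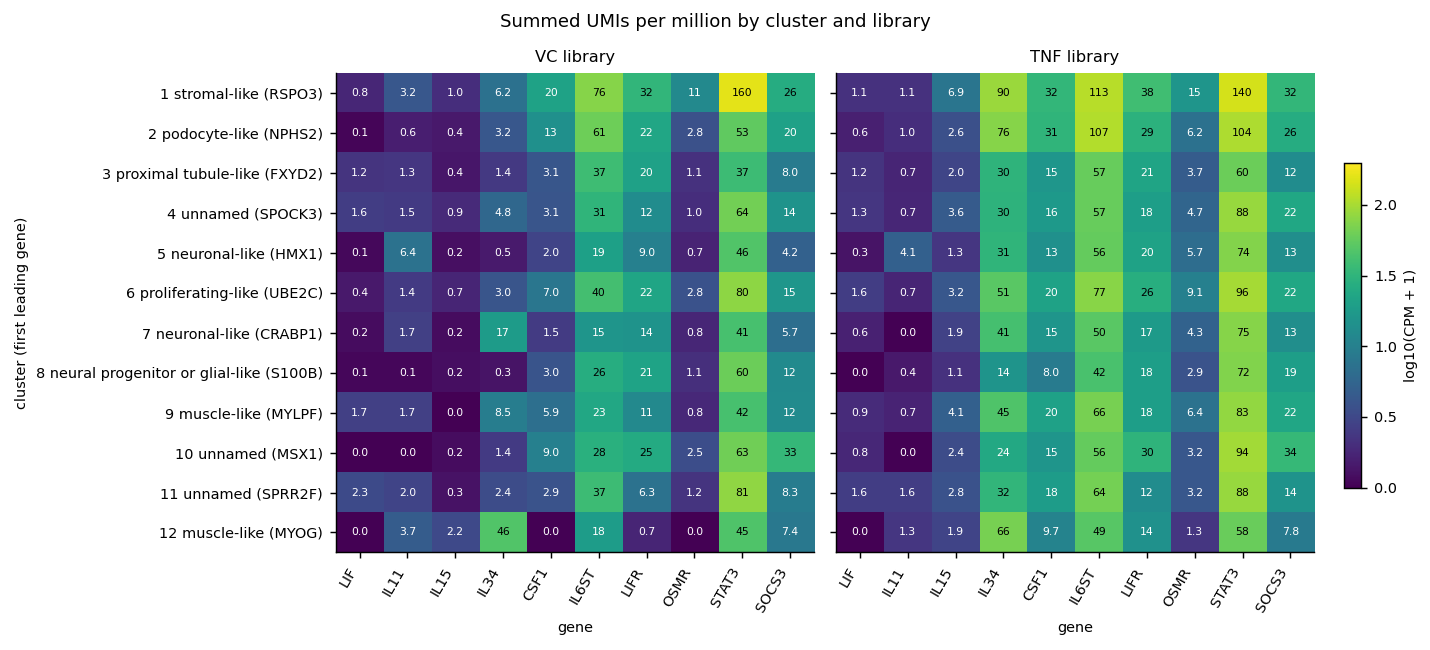
Level of the 10 genes (columns) in the 12 clusters (rows, with the first leading gene) of the VC library (left) and the TNF library (right), printed in CPM and colored on a log10(CPM + 1) scale. The stromal-like row holds the highest STAT3 and IL6ST of both libraries, and the IL34 column of the VC library is highest in the MYOG muscle-like and CRABP1 neuronal-like clusters, at 45.9 and 17.4.

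With VC, the receptors and STAT3 were highest in stromal-like cells, a cluster of 2622 cells with COL1A1, DCN and PDGFRA among its markers. STAT3 reached 160 CPM there against 53.2 in podocyte-like and 36.8 in proximal tubule-like cells. IL6ST reached 76 CPM in stromal-like, 61 in podocyte-like and 37.3 in proximal tubule-like cells, and LIFR 31.7, 22.2 and 19.5. OSMR was the most uneven of the 3 receptors, with 11.1 CPM in stromal-like cells, 2.75 in podocyte-like and 1.12 in proximal tubule-like cells. CSF1 was at 20.3 CPM in stromal-like, 13.2 in podocyte-like and 3.11 in proximal tubule-like cells. As shares of the stromal-like level, STAT3 and OSMR in podocyte-like cells (33.3% and 24.7%) and STAT3, OSMR and CSF1 in proximal tubule-like cells (23%, 10.1% and 15.3%) lay within the range of the stromal markers with VC. Each stood above the stromal marker share of its own cluster, 15.4% in podocyte-like and 5.64% in proximal tubule-like cells. SOCS3 was highest in a cluster without a name led by MSX1 and DKK1 (32.7 CPM), next to 25.6 in stromal-like and 19.7 in podocyte-like cells. That unnamed cluster had 7 of 8 proliferating markers raised.

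The other ligands were rare. LIF had 71 UMIs in the whole VC library and at most 2.26 CPM in any cluster, and IL15 had 50 UMIs. IL11 was highest in 1 of the 2 neuronal-like clusters, the one led by HMX1 and PRPH, at 6.40 CPM from 55 UMIs, and second in MYOG muscle-like cells, at 3.70 CPM from only 5 UMIs. Stromal-like cells had 3.25 CPM from 46 UMIs. IL34 with VC was highest outside the kidney-like cells. It was at 45.9 CPM in MYOG muscle-like cells (62 UMIs in 137 cells) and at 17.4 CPM in the neuronal-like cluster led by CRABP1 (91 UMIs), against 6.22 in stromal-like, 3.24 in podocyte-like and 1.41 in proximal tubule-like cells.

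The partners of these ligands were placed as follows. CSF1R had 0 UMIs in the VC library, which allows up to 0.0298 CPM (3 counts), and 2 UMIs in the TNF library. Of 10 leukocyte markers, 9 were below 1 CPM in both libraries, PTPRC with 1 and 4 UMIs, and AIF1 was the exception at 29.1 and 44.8 CPM. PTPRZ1, a second receptor described for IL34, was at 270 CPM in the neural progenitor or glial-like cluster with VC and at 43.1 CPM over all cells. IL11RA was at 143 CPM in stromal-like and 111 CPM in podocyte-like cells.

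**Figure D5:**
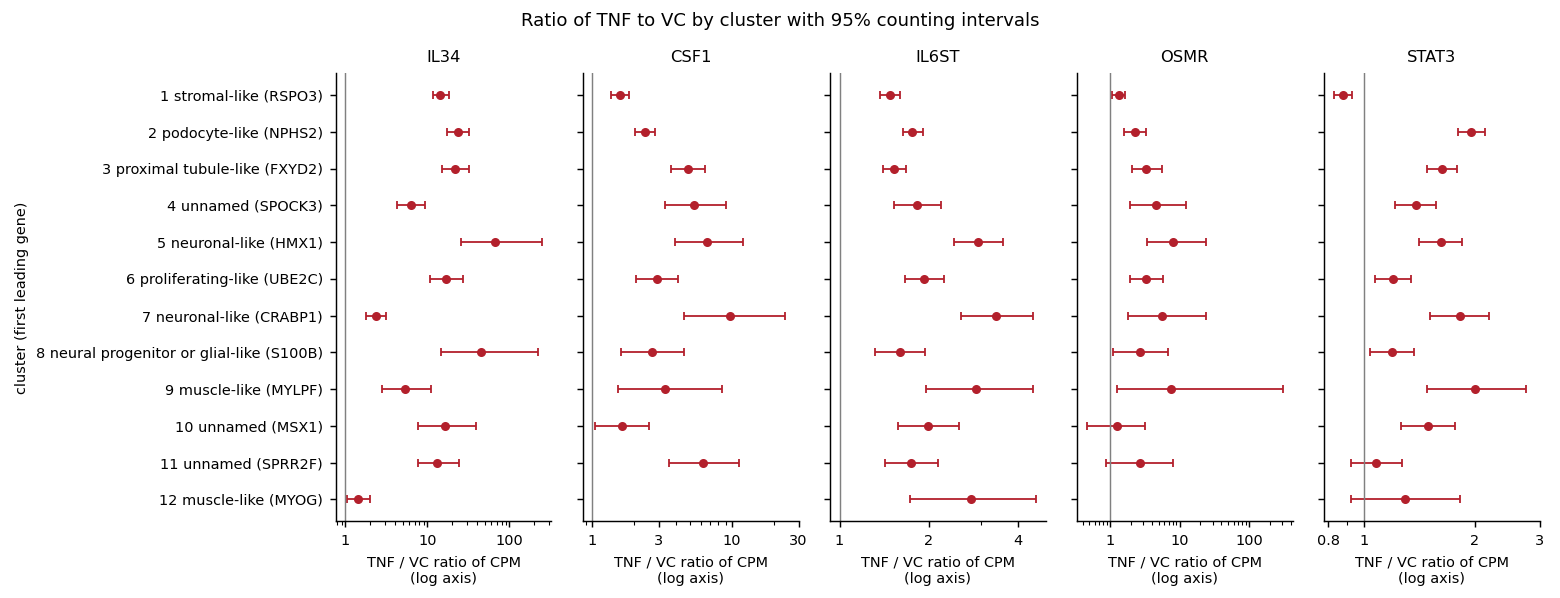
Ratio of CPM in the TNF library to CPM in the VC library for 5 genes (panels, log axes) in the 12 clusters (rows), with exact 95% intervals for counting error. IL34 reaches 14.4 in stromal-like and 23.4 in podocyte-like cells, STAT3 is below 1 in stromal-like cells only, and the CSF1 and OSMR panels leave out clusters without a ratio.

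Over all cells, the TNF library had 12.8 times the IL34 level of the VC library (interval 11.6 to 14.2), 6.45 times the IL15 level (4.76 to 8.89), 2.95 times the CSF1 level (2.71 to 3.21) and 2.37 times the OSMR level (2.06 to 2.74). IL6ST, SOCS3, STAT3 and LIFR followed with 1.90, 1.48, 1.34 and 1.32. IL11 was lower, at 0.57 (0.441 to 0.733), and LIF had an interval that held 1 (0.953 to 1.84). In bulk at 24 h IL11 with TNF was at 1.07 and LIF at 2.08 times the CPM of VC. The single-cell libraries came from whole wells on day 24, and the difference from bulk was not tested. The 2 libraries also differed in their make-up of cells. Podocyte-like cells were 11.4% of the VC and 19.2% of the TNF cells, stromal-like cells 22% and 19.1%, and proximal tubule-like cells 12.9% and 18.1%. The muscle-like cluster led by MYLPF was at 1.02% and 6.25%. The part of these shares in the ratios over all cells was not tested.

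IL34 with TNF was at 89.6 CPM in stromal-like cells (1436 UMIs against 88 with VC) and at 75.9 CPM in podocyte-like cells (1418 against 46). The ratios were 14.4 (11.6 to 18.1) and 23.4 (17.5 to 32.2). The podocyte-like level was 84.7% of the stromal-like one, where stromal markers in podocyte-like cells were at 34.8%. In proximal tubule-like cells IL34 was at 30.4 CPM (ratio 21.6, 14.9 to 32.5), 33.9% of the stromal-like level. Stromal and podocyte markers there were at 24.6% and 14.1% of their own clusters, so IL34 stood above that cluster's own stromal share. It lay within the range that stromal markers showed over all clusters and is not read as expression. Whether these cells express it cannot be told here. By the same rule IL34 is not read as expression in the HMX1 neuronal-like cluster (34.6%, within the range). Nor is it in the neural progenitor or glial-like cluster, which was below that range (16.1%). The CRABP1 neuronal-like cluster had IL34 already with VC, at 17.4 CPM. Its 40.6 CPM with TNF (ratio 2.34, 1.77 to 3.09) were 45.3% of the stromal-like level, within the same range, so that no change is read there. MYOG muscle-like cells, highest with VC, went from 45.9 to 66 CPM (ratio 1.44, 1.04 to 2.01). Their level was 737% of the stromal-like one with VC and 73.7% with TNF. Stromal markers in this cluster were at 28.7% with TNF. A share that starts so high cannot screen the difference, so no change is read there either.

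CSF1 with TNF was at 32.1 CPM in stromal-like and 31.3 CPM in podocyte-like cells, which are ratios of 1.58 (1.37 to 1.83) and 2.38 (2.01 to 2.82). The proximal tubule-like ratio of 4.83 (3.67 to 6.44) rests on a level of 15 CPM, 46.7% of the stromal-like one. This is above the 24.6% of stromal markers in that cluster but within their range over all clusters. IL15 was at 6.86 CPM in stromal-like cells with TNF, from 14 to 110 UMIs, a ratio of 6.93 (3.96 to 13.1), and at 2.62 CPM in podocyte-like cells, from 6 to 49 UMIs. The latter level was 38.2% of the stromal-like one, within the range. IL11 was below its VC level in stromal-like cells, with 18 UMIs against 46 and a ratio of 0.345 (0.188 to 0.607).

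The receptors and STAT3 had smaller ratios than IL34 in the kidney-like clusters. IL6ST had ratios of 1.48 in stromal-like (1.37 to 1.60) and 1.76 in podocyte-like cells (1.63 to 1.91), where its TNF level was 95.2% of the stromal-like one. In proximal tubule-like cells its ratio was 1.53 (1.4 to 1.68) in the cluster and 0.967 with a marker gate in place of clusters, and its TNF level was 50.7% of the stromal-like one, so that no change is read. OSMR had 1.33 in stromal-like (1.08 to 1.63) and 2.26 in podocyte-like cells (1.56 to 3.34), where its TNF level was 42.2% of the stromal-like one, within the range of the stromal markers. LIFR had 1.21 in stromal-like (1.07 to 1.37) and 1.30 in podocyte-like cells (1.13 to 1.5). STAT3, at 53.2 CPM with VC in podocyte-like cells, had a ratio of 1.95 there (1.80 to 2.13), with a TNF level at 74.2% of the stromal-like one. In proximal tubule-like cells it was at 36.8 CPM with VC and 59.8 with TNF (ratio 1.63, 1.48 to 1.79), which was 42.7% of the stromal-like level and again within the range. In stromal-like cells it went from 160 to 140 CPM, a ratio of 0.877 (0.826 to 0.930). The stromal markers of that cluster were lower with TNF too, at 4810 CPM against 7375. Podocyte markers in it were at 13.5% of their podocyte-like level against 5.41% with VC. The part of these shifts in the STAT3 ratio was not tested. SOCS3 had ratios of 1.26, 1.30 and 1.51 in the 3 clusters, with intervals above 1, the last at 37.5% of the stromal-like level with TNF and within the range. The stromal marker shares of the other clusters were larger with TNF, as given above. Their part in the ratios of genes that are highest in stromal-like cells was not tested.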

How the data were processed

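The series held 16 samples, of which 13 bulk libraries in 3 tables and 2 single-cell libraries were used, and 1 single-cell sample was not analysed here. Samples were grouped by their labels. The 10 genes and the pathway and marker lists were chosen with earlier results of these data known.

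The deposited bulk values are log2(CPM + 1), made by the authors with STAR 2.7.8a on Ensembl release 104, read counting by HTSeq and voom, with 0.5 added to each count. The rule by which genes were listed was not given in the sources used here. Each table had its own normalization, so levels were compared within a table only. Whole reads could be recovered for all values, and their sums are the depths given. Kit strandedness in counting was not established, so reads of overlapping genes cannot be told apart. The deposited single-cell values are UMI counts in filtered matrices that the authors made with Cell Ranger. The matrix header gives version 6.0.1 and the processing notes list 2.1.1, and which genome build served them was not given unambiguously.

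From these, limma 3.58.1 (R 4.3.3, trended empirical Bayes) was fitted to all listed genes, with 1 mean per day in set 2 (3 residual degrees of freedom) and time and treatment in the TNF set (1 residual degree of freedom), and p-values were adjusted by Benjamini-Hochberg over all genes (threshold 0.05). The pseudocount makes the fold changes of low genes too small. Alternatives were median centring, a pseudocount of 0.1, a mean limit of 1, no trend, edgeR 4.0.16 and DESeq2 1.42.0 on recovered reads, organoid number as a block, no time term, and each library left out. Organoid numbers were not used as pairs in the main fit. Over all genes, deviations of same-numbered libraries correlated only weakly (0.10, 0.06 and 0.20). Whether the numbers link libraries across days cannot be told from these values. The fits were tested on simulated data, where limma missed most of the smaller changes in the design by day, which edgeR mostly called, so a gene not called between days may still differ. In each pathway list, at most the 4 called genes with the largest change were named, and for each of the 10 genes up to 3 of the most alike by Pearson's r. Some genes that this rule names are not reported here. IL6R, IL11RA and PTPRZ1 in single cells were singled out after their values were seen.

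Cells with over 500 genes were kept. After 2000 variable genes per library and 30 principal components, libraries were aligned by a Harmony-style method written in numpy, not by the Harmony software. They were clustered by Leiden (scanpy 1.11.5, 20 neighbors, resolution 0.25). A cluster was named for the class with most markers raised, where these were at least 3. In addition, no other class could have more markers among the 10 leading genes of the cluster. Doublets were not removed, since Scrublet's own threshold called none. This does not show that doublets were absent. At an assumed rate of 0.8% per 1000 cells, 9.52% of the VC and 18.5% of the TNF cells would be doublets. Cells of highest Scrublet score in these shares were left out as an alternative. Exon lengths and positions are from GENCODE 44 on GRCh38.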

Additional observations from a re-analysis of the deposited data

Results flagged for a closer look

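IL6ST took opposite courses in the 2 time courses. From day 21 to day 29 it differed by -0.29 in set 1 and by 0.34 in set 2, and from day 21 to day 25 by -0.43 and 0.25 on the log2(CPM + 1) scale. All 4 set 2 libraries of days 25 and 29 lay above both day 21 libraries, and both later set 1 libraries lay below the day 21 library. The difference between sets was not tested, since set 1 held 1 library per day.

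IL11 between days 25 and 29 differed by -0.38 in set 1 and by 0.34 in set 2, where it did not pass the test (limma adjusted p = 0.43). The difference between sets was not tested.

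STAT3 was lower with TNF in stromal-like cells, with a ratio of 0.877, while 9 other clusters had intervals above 1. In 5 of these 9 the TNF level lay within the range that stromal markers showed over the clusters (24.6 to 60.1% of the stromal-like level), so that no change is read there, and in 4 it lay above. In bulk it was higher at both times. With 1 single-cell library per condition the difference between clusters was not tested.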

How the results depend on the processing

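With single libraries left out, the number of the 10 genes called ranged from 5 to 7 for day 29 against day 21 (7 with all libraries), from 0 to 3 for day 25 against day 21 (3), from 0 to 2 for day 29 against day 25 (1) and from 5 to 7 for TNF (8), where these fits had no time term. The lowest counts came without the second day 21 library, without the second day 21 or either day 25 library, without any single library but the first day 29 one, and without the 24 h TNF or the 48 h VC library. Over all genes the ranges were 2358 to 5417 (5081), 241 to 2231 (1486), 0 to 2014 (574) and 638 to 738 (4061; 727 and 726 without the 24 h TNF or the 48 h VC library). Between days 25 and 29, the count of the 10 genes was 0 with the pseudocount of 0.1 and without the trend, 2 with the mean limit, and 3 with edgeR and with DESeq2. Over all genes that comparison gave 1233 with centring, 1122 with the mean limit, 209 without the trend, 1336 with edgeR, 1288 with DESeq2 and 1118 with the replicate block. With the pseudocount of 0.1 limma called 0, with 4585 genes at an unadjusted p under 0.05. Day 25 against day 21 gave 2252 with centring and 841 with the pseudocount of 0.1. TNF gave 2184 with DESeq2 and 1310 without the time term. The cause of these moves was not tested.

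The replicate block called 6056, 2091 and 1118 genes in the 3 day comparisons, against 5081, 1486 and 574 without it. Of the 10 genes it called 8, 4 and 1. Whether its numbers pair the libraries is not known.

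Signs turned for genes near 0, mostly with 1 library left out, and these are given as ranges over such fits. For day 29 against day 21, IL15 ran from -0.08 (without the first day 21 library) to 0.19, with -0.01 without the first day 29 library and -0.04 with centring. SOCS3 ran from -0.42 to 0.41 (without the second and the first day 21 library), with 0.15 without the first day 29 library and 0.00 with the pseudocount of 0.1. For day 25 against day 21, IL15 ran from -0.09 to 0.26 (without the first and the second day 25 library), with -0.05 without the first day 21 library. LIFR ran from -0.00 to 0.20 and SOCS3 from -0.24 to 0.59. For day 29 against day 25, IL15 ran from -0.21 to 0.15, with 0.03 without the second day 29 library, and IL6ST from -0.03 to 0.21. With TNF and no time term, SOCS3 was -0.88 and -0.93 without the 24 h VC or the 48 h TNF library, JUNB -0.08 without the 24 h VC library, and FOS 1.02 and 0.24 without the 24 h TNF or the 48 h VC library.

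In stromal-like cells IL34 with TNF, at 89.6 CPM, was at 102 CPM without alignment of the libraries, at 94.8 without the cells of highest Scrublet score (chosen after seeing the data) and at 69.9 with a marker gate in place of clusters. Its ratio ranged from 12.7 to 16.3. With the gate the ratio of IL6ST in proximal tubule-like cells was 0.967. The planned removal of Scrublet doublets left out no cell.

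IL15 and IL11 rest on few reads, 2 libraries per day are the most in any group, and the single-cell comparison has 1 library per condition.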
